A study of Homo sapiens with 6 samples.

Results

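The genes described here write, erase and read methyl marks on mRNA or build its cap, and they were examined for peaks of N1-methylguanosine (m1G), a methylated form of guanosine. Of 36 names given, NSUN1 is an older name of NOP2, so 35 genes remained of the 20052 protein-coding genes in the RefSeq gene table for GRCh38.p14. They were chosen by name with earlier results of these data known, so the shares below only describe them. A peak was counted for a gene when it lay wholly inside the gene span on the strand of the gene. The RNA came from PANC-1, an established human cell line from a pancreatic ductal adenocarcinoma, and its polyA+ RNA was fragmented and precipitated with an antibody against m1G. Control cells gave 1 input library and 2 m1G precipitates. Cells transfected with siRNA against TRMT5, the enzyme that methylates a guanosine beside the tRNA anticodon, gave another 1 input library and 2 m1G precipitates after 4 days of depletion. Both kinds of cells are the same line, and the siRNA was transfected transiently. Neither deposited peak list names a condition or a library, and which libraries went into each list is not given in the sources used here. The values below therefore cannot be assigned to control or TRMT5-depleted cells and carry no replicate error.

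Methyl marks on mRNA are placed by writers, removed by erasers and bound by readers. The best known internal mark, N6-methyladenosine (m6A), is placed by a complex in which METTL3 is the catalytic subunit, METTL14 holds the RNA, and WTAP, VIRMA, ZC3H13, CBLL1, RBM15 and RBM15B recruit and steer the pair. FTO and ALKBH5 remove methyl groups from adenosine, and YTH-domain proteins bind m6A and route the mRNA to decay, splicing, export or translation. The cap is a methylated guanosine joined to the 5′ end of the mRNA, and further methyl groups are added to the first nucleotides behind it. Peaks on these genes concern the methylation state of the mRNAs that encode this machinery, not the activity of the proteins.

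Of the 35 genes, 21 (60.0%, 95% Wilson interval 43.6 to 74.4) had a MeTDiff peak and 11 (31.4%, interval 18.6 to 48.0) had a MACS2 summit. The strand, which the peak rule needs, was known for 31 of the genes, of which the 21 are 67.7% (interval 50.1 to 81.4), beside 38.2% of protein-coding genes with a known strand. A summit needs no strand, and 18.0% of all protein-coding genes had one. Both lists marked 9 of the genes, which is 29% of the 31 with a known strand (interval 16.1 to 46.6), against 17.2% of such protein-coding genes. A further 12 genes had only a MeTDiff peak, YBX1 and FMR1 had only a summit, and 12 genes had neither. The lists hold no expression values, so these shares also depend on how much of each mRNA the cells made, and intervals cover counting error only. The 4 genes without a known strand, VIRMA, YTHDF3, IGF2BP1 and RNMT, had no MeTDiff peak on either strand. Of marker genes of the pancreas, 5 of 6 ductal and epithelial, 0 of 4 acinar and 0 of 4 endocrine ones had a MeTDiff peak of either strand, beside 37.2% of all protein-coding genes. A peak does not measure expression, so these counts do not test the cell label.

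**Figure D1:**
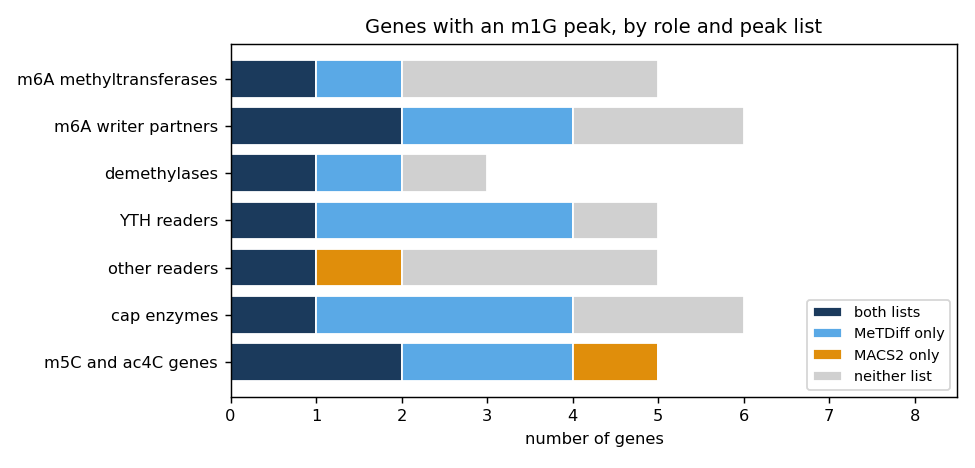
Bars count the genes of each role on the x axis, split by the peak list that marked them: both lists, MeTDiff only, MACS2 only or neither. All 5 m5C and ac4C genes were marked by at least 1 list. Neither list marked 3 of the 5 m6A methyltransferases and 3 of the 5 readers outside the YTH family. The share of all protein-coding genes marked by at least 1 list was not computed.

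The 35 genes held 39 MeTDiff peaks and 16 MACS2 summits. The fold of a MeTDiff peak is the authors' ratio of precipitate over input, and it ran from 1.35 in NOP2 to 24.4 in CMTR1, with a median of 3.67 beside 4.24 over the whole list of 18431 peaks. The score of a MACS2 summit is the −log10 of a p or q value as the caller wrote it, and it ran from 4.04 to 52.8, with a median of 17.0 beside 16.4 over all 6264 summits. The median fold thus lay below that of its list, and the median score slightly above. Peaks split by introns into 2 or 3 blocks numbered 14 of 39 (35.9%, interval 22.7 to 51.6), beside 33.7% of peaks in protein-coding genes. Peaks above 10-fold numbered 7 of the 39 (17.9%, interval 8.98 to 32.7), against 12.3% of the whole list. They lay in 6 genes, CMTR1, ALYREF, METTL3, RBM15B, PRRC2A and NSUN5, which is 19.4% of the 31 with a known strand (interval 9.19 to 36.3) beside 8.78% of such protein-coding genes. At the other end, 6 of the 21 genes with a peak had none of 3-fold or more, among them the demethylase FTO and the cap enzymes CMTR2 and PCIF1. The matching share of protein-coding genes was not computed. Among the 6047 such genes with a peak, a largest fold of 3.0 ranked at 5059 and one of 2.83 at 5192.

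**Figure D2:**
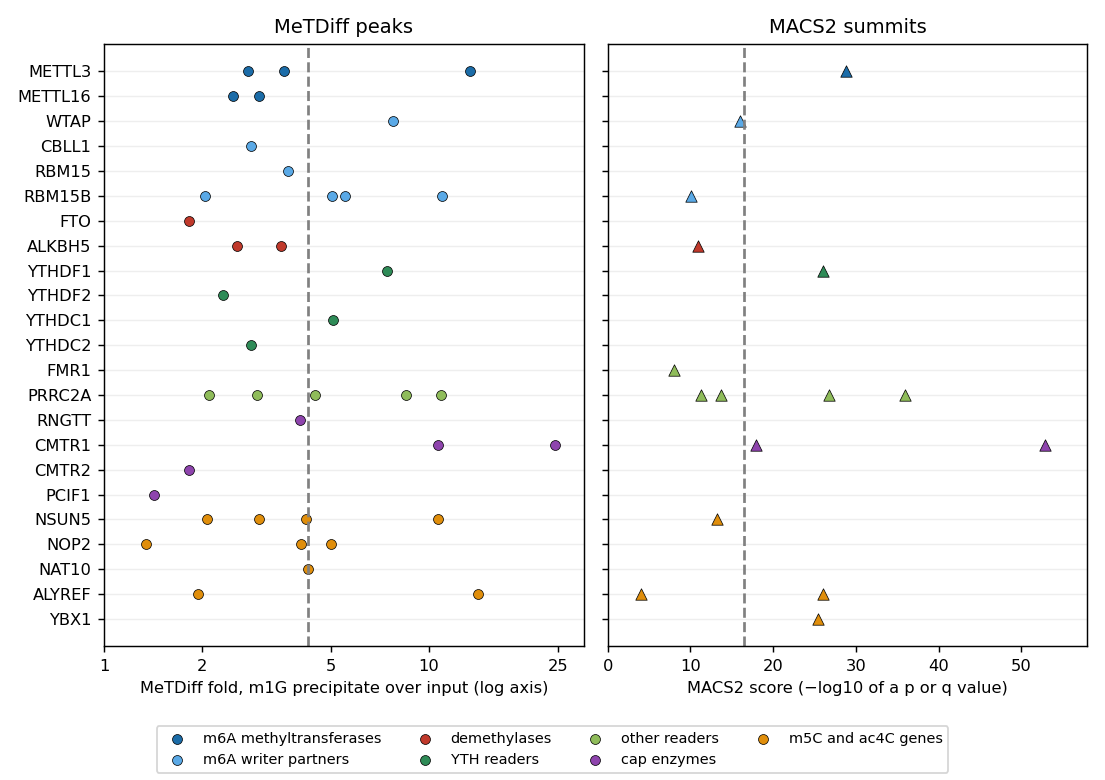
Each circle is a MeTDiff peak placed by its fold on a log axis, and each triangle is a MACS2 summit placed by its score; rows are genes, colours are roles and dashed lines mark the medians of the whole lists, 4.24 and 16.4. CMTR1 is the farthest right in both panels, with 24.4-fold and a score of 52.8.

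Many of the marked genes carried a peak close to the 5′ end. A peak was assigned to an end when its midpoint was within 500 bp of that end of the gene span. For a spliced peak the midpoint was that of its outer span, introns included. The spliced YTHDC1 peak, which began at base 251, had its midpoint at base 5967 and was not counted at the 5′ end. By this measure 9 of the 39 MeTDiff peaks (23.1%, interval 12.6 to 38.3) lay at the 5′ end, beside 13.8% of peaks in protein-coding genes, and 2 (5.13%, interval 1.42 to 16.9) at the 3′ end, beside 6.32%. Of the 16 summits 8 (50.0%, interval 28.0 to 72.0) lay at the 5′ end, each in a different gene, against 23.9% of summits in protein-coding genes with a known strand, and 0 lay at the 3′ end. The genes were METTL3, WTAP, ALKBH5, YTHDF1, FMR1, NSUN5, ALYREF and YBX1. The MeTDiff peak of WTAP fell just outside the limit, with its midpoint at base 508, while that of CMTR2, at base 484, fell just inside.

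Of the 16 summits 5 (31.2%, interval 14.2 to 55.6) were within the first 50 transcribed bases of a start site listed by RefSeq, against 7.09% over protein-coding genes. The reference entries reach 50 bases into the transcript, so the sequence around these 5 summits can be shown. The runs below have 30 bases each, 5′ to 3′ on the RNA-like strand, from RefSeq promoter entries of GRCh38.p14, and the capital marks the summit base. A summit marks the top of a pile of fragments and not a methylated base.
METTL3, minus strand, chr14:21511309-21511338: tttccggttagcctTcggggtgtccgcgtg
WTAP, plus strand, chr6:159727133-159727162: cttgctgagctccgGggcccgcggagctcg
FMR1, plus strand, chrX:147911939-147911968: cgtttcggtttcacttccggtggAgggccg
ALYREF, minus strand, chr17:81891545-81891574: gattccgcgcccgcCatggccgacaaaatg
YBX1, plus strand, chr1:42682424-42682453: gctagttcgatcggTagcgggagcggagag
The summits sat at base 17 of METTL3, 31 of WTAP counted from an internal start site 424 bp into the span, 44 of FMR1, 28 of ALYREF and 21 of YBX1. Guanosine, the base that m1G derives from, made up 11 of the 30 bases in METTL3, 12 in WTAP, 11 in FMR1, 8 in ALYREF and 14 in YBX1. Read on the strand of the named gene, the summit base itself was a G in WTAP alone. A summit has no strand, and the spans of METTL3, WTAP and ALYREF each overlap another protein-coding gene.

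The base content of the starts was compared next. Over the first 50 transcribed bases at the most upstream listed start, the 13 genes with a peak or summit at the 5′ end had a median G content of 32.0% (28.0 to 46.0), the 18 others with a RefSeq entry had 37.0% (26.0 to 54.0), and all protein-coding genes had 34.0%. Protein-coding genes with a peak or summit at the 5′ end had 38.0%, above the 32.0% of the 13 genes, whose range overlaps all of these values. This window is often not the marked sequence. The METTL3, FMR1, ALYREF and YBX1 summits lay in it, but the RBM15 peak covered bases 372 to 471 and the CMTR2 peak bases 434 to 534. The triplet GGG, searched on the RNA-like strand alone with overlapping matches counted once per gene, was present in 9 of those 13 genes (69.2%), in 11 of the 18 others (61.1%), in 72.1% of protein-coding genes with a peak or summit at the 5′ end and in 63.1% of all such windows.

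**Figure D3:**
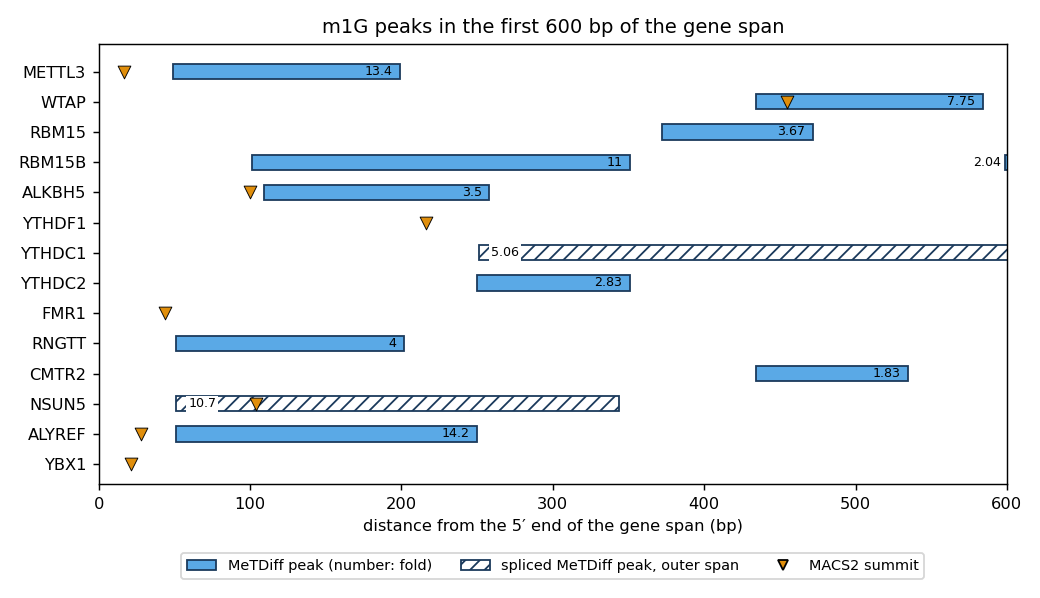
The x axis is the distance from the 5′ end of the gene span over the first 600 bp; bars are MeTDiff peaks with their fold, hatched bars are the outer spans of spliced peaks, introns included, and triangles are MACS2 summits. In METTL3, ALKBH5 and ALYREF the summit stands 32, 9 and 23 bp upstream of the peak.

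Among the m6A methyltransferases, METTL3 was the only one marked by both lists. METTL3 (chromosome 14, 21498138 to 21511340) had MeTDiff folds of 13.4, 3.57 and 2.77 from the 5′ to the 3′ end, with false discovery rates (FDR) of 0.00015, 0.002 and 0.00087, and 1 summit with a score of 28.8. The strongest peak covered bases 49 to 198 of the span (chr14:21511143-21511292), and its fold was higher than 93.6% of all MeTDiff peaks. The 2 weaker peaks lay 60.2% and 81.5% of the way along the span. METTL16, which methylates a spliceosomal RNA and the mRNA of a methionine adenosyltransferase, had peaks of 2.5-fold and 3.0-fold, located 95.3% and 96.9% of the way to its 3′ end, and no summit. METTL14, the partner of METTL3, METTL5, which methylates RNA of the small ribosomal subunit, and METTL4, which methylates a small nuclear RNA, had no peak or summit. An unmarked gene such as METTL14 is the more common case. Only 38.2% of protein-coding genes with a known strand had a MeTDiff peak, and 18.0% of all protein-coding genes had a summit.

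Of the 6 partners of the writer, 4 had a MeTDiff peak, beside 38.2% of protein-coding genes with a known strand. The strand of VIRMA was not known. RBM15B, an RNA-binding adaptor, had 4 MeTDiff peaks within a span of 6624 bp, with folds of 11.0, 2.04, 5.03 and 5.53 from 5′ to 3′ and FDR values of 0.00046, 0.00079, 0.0048 and 0.0048, and its summit, with a score of 10.1, lay inside the third (chr3:51393078-51393227). Its paralog RBM15 had a single peak of 3.67-fold, also near the 5′ end, with its midpoint at base 421 (chr1:110339748-110339847). In both adaptors the most upstream peak thus lay within 500 bp of the gene start. WTAP, the scaffold of the complex, had 1 peak of 7.75-fold (chr6:159727126-159727275, FDR 3.7e-05) that contained its summit, with a score of 16.0. The same place held a peak of another gene ID on the opposite strand, of 6.08-fold (chr6:159727164-159727264), and the span of SOD2 overlaps that of WTAP. A summit has no strand, so the WTAP summit cannot be assigned to either. CBLL1, a ubiquitin ligase of the complex, had 1 peak of 2.83-fold located 91.5% of the way along its span. VIRMA, the largest scaffold, and ZC3H13, which anchors the complex in the nucleus, had neither peak nor summit.

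The erasers were marked weakly. ALKBH5 had folds of 3.50 at the 5′ end (chr17:18183936-18184084, FDR 0.00012) and 2.56 near the 3′ end (chr17:18208622-18208721, FDR 0.00059), and its summit, with a score of 11.0, lay 9 bp from the first of these peaks. FTO, with the longest span of the 35 genes at 417979 bp, had a single spliced peak of 1.83-fold in the middle of the gene (FDR 0.00071), lower than that of most peaks in the list (percentile 6.58). ALKBH3, which removes methyl groups from N1-methyladenosine and N3-methylcytidine, had no peak or summit. All 3 folds in erasers were below the median of the list, while their FDR values ran from 0.00012 to 0.00071.

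Among the YTH readers, 4 of 5 had a MeTDiff peak, always a single one, beside 38.2% of protein-coding genes with a known strand. The strand of the remaining reader, YTHDF3, was not known. YTHDF1 had 7.42-fold (chr20:63203397-63203496, FDR 0.00042), YTHDC1 5.06-fold, YTHDC2 2.83-fold and YTHDF2 2.33-fold. The YTHDF2 peak had the lowest FDR of all 39 peaks, 4.0e-07, beside a fold higher than only 16.4% of the list, so a low FDR and a high fold did not go together there. YTHDF1 was the only YTH reader with a summit, with a score of 26.0 at base 216 of the span (chromosome 20, position 63215916). That summit lay 12420 bp from the YTHDF1 peak, so the lists marked separate places of the gene. The peak of YTHDC2, which unlike the other YTH proteins is an RNA helicase, lay at the 5′ end, with its midpoint at base 300. The YTHDC1 peak joined 3 blocks over introns and began at base 251. YTHDF3 had neither peak nor summit.

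PRRC2A, an m6A reader, was the member with the most peaks. It had 5 MeTDiff peaks with folds of 8.48, 2.11, 2.96, 4.46 and 10.9 from 5′ to 3′. Their FDR values were 0.00083, 0.00083, 0.021, 0.0004 and 0.00095, of which 0.021 is the highest among the 39 peaks. It also had 4 summits with scores of 26.8, 11.3, 13.7 and 36.0 (gene span chromosome 6, 31620715 to 31637771). No peak lay within 500 bp of an end, and the first began at base 5363. The first and last peaks were the strongest, and the highest summits lay beside the same places, the first inside a peak (chr6:31626077-31627054) and the last 65 bp from one (chr6:31634786-31635140). By number of peaks PRRC2A stood above 87.9% of the protein-coding genes with a peak. FMR1, which encodes an RNA-binding repressor of translation, had only a summit of score 8.07, lower than that of most summits (percentile 15.6). IGF2BP1, IGF2BP2 and IGF2BP3, which bind m6A and stabilise their mRNAs, had no peak on their own strand and no summit. A peak of 2.90-fold inside the IGF2BP3 span was on the opposite strand, where the span of MALSU1 overlaps it.

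The cap enzymes held both the strongest and some of the weakest peaks. CMTR1, which methylates the ribose of the first transcribed nucleotide, had 2 spliced MeTDiff peaks of 24.4-fold (chr6:37453095-37458741) and 10.7-fold (chr6:37459595-37461608), each with an FDR of 0.0002, and summits with scores of 52.8 and 17.9. Its larger fold ranked at 254 of the 18431 peaks and its higher score at 207 of the 6264 summits. Both lists thus placed CMTR1 first in the machinery, with peak midpoints and summits between 55.5% and 65.1% of the span. The outer spans of the peaks, introns included, ran from base 29111 to base 37624 of 57524. The summits themselves lay between the blocks of the spliced peaks, 67 and 105 bp from the nearest block. CMTR2, which acts on the second nucleotide, had 1.83-fold at base 484, with an FDR of 0.0063. Its MeTDiff p-value, 0.00028, was below the 0.00031 of a PRRC2A peak with an FDR of 0.00095. The FDR of CMTR2 thus did not follow its p-value, and the reason was not tested. RNGTT, the enzyme that joins the guanosine cap to the mRNA, had 4.00-fold at bases 51 to 201 (chr6:88963418-88963568). PCIF1, which methylates a first adenosine next to the cap, had 1.42-fold near the 3′ end, 196 bp from it, and another peak of 5.50-fold that crossed its 5′ boundary was on the opposite strand. RNMT, which methylates the cap guanosine, and RAMAC, its activating subunit, had neither peak nor summit.

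All 5 genes of 5-methylcytidine (m5C) and N4-acetylcytidine (ac4C) were marked by at least 1 list, YBX1 by a summit alone. A MeTDiff peak was present in 4 of these 5 genes, as in 4 of the 5 YTH readers, beside 38.2% of protein-coding genes with a known strand. A summit was present in 3, beside 18.0% of all protein-coding genes. The share of protein-coding genes marked by at least 1 list was not computed. ALYREF, an export factor that binds m5C, had 14.2-fold at the 5′ end (chr17:81891339-81891537, FDR 0.00083) and 1.94-fold at the 3′ end (FDR 0.0018). Summits of score 26.0 and 4.04 lay near the same places. The span of ANAPC11 overlaps that of ALYREF, and a summit has no strand. NSUN5, an m5C methyltransferase of ribosomal RNA, had 4 peaks of 10.7, 4.17, 3.0 and 2.07 from 5′ to 3′, with FDR values of 0.00058, 0.0003, 0.0019 and 0.0019, and its summit, with a score of 13.2, lay inside the first (chr7:73308484-73308776). In ALYREF and NSUN5, as in METTL3, the fold was highest at the 5′ end. YBX1, a cold-shock protein that binds m5C, had a summit of score 25.5 at its start and no MeTDiff peak. NAT10, the acetyltransferase for ac4C, had a spliced peak of 4.25-fold. NOP2, another m5C methyltransferase of ribosomal RNA, had peaks of 5.00, 4.03 and 1.35, of which the last 2 were listed under a second gene ID on the same strand, and the first 2 overlapped each other.

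**Figure D4:**
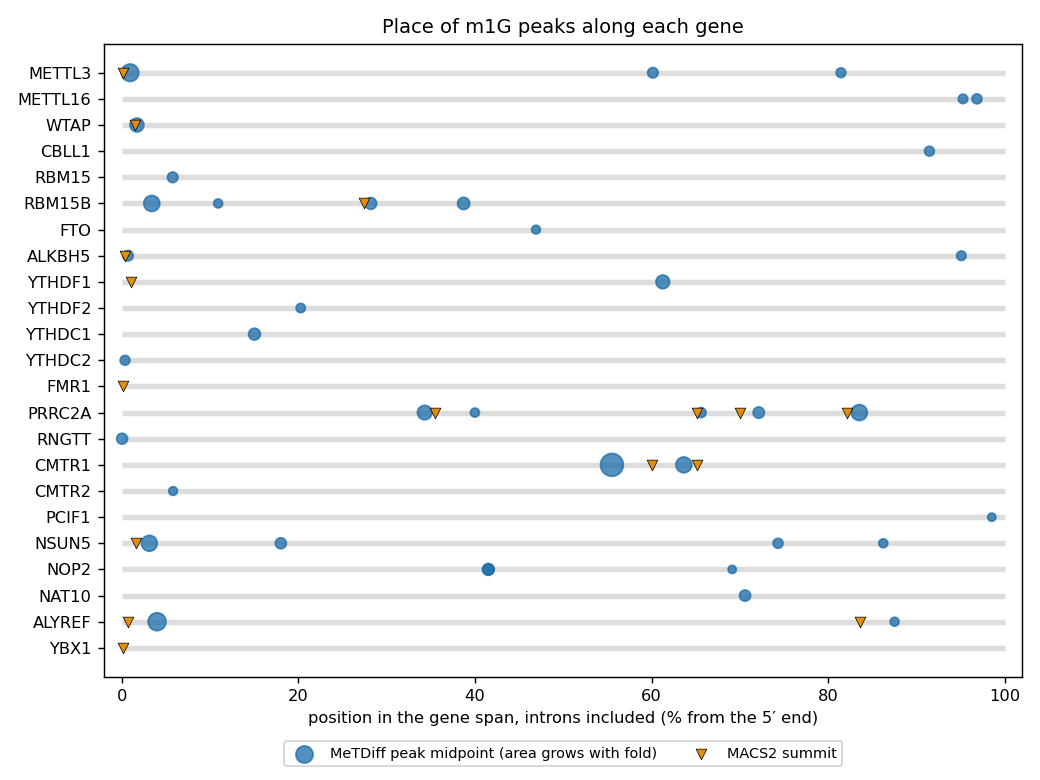
Each row is a gene span drawn from its 5′ end at 0% to its 3′ end at 100%, introns included; circles are MeTDiff peak midpoints with an area that grows with the fold, and triangles are MACS2 summits. Circles and triangles meet at the 5′ end in METTL3, WTAP, ALKBH5, NSUN5 and ALYREF, and in the interior in RBM15B and PRRC2A. They stand farther apart in CMTR1, at 55.5% and 60.1% for the strongest peak, and near the 3′ end of ALYREF, at 87.5% and 83.6%.

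Summits and peaks of the same gene were then compared in place. Of the 16 summits, 5 lay inside a block of a MeTDiff peak of the same gene (31.2%), beside 35.7% over protein-coding genes with a known strand. A further 3 lay between the blocks of a spliced peak, 34 to 105 bp from a block, and 5 lay outside a peak but 9 to 65 bp from it. The YTHDF1 summit was far from its peak, and YBX1 and FMR1 had no peak. Genes with a MeTDiff peak had a median span of 20703 bp and genes without one 39326 bp, and 3 of the 31 genes with a known strand (9.68%, interval 3.35 to 24.9) had 4 or more peaks, beside 7.35% of such protein-coding genes.

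Other genes of mRNA modification and of the cap carried peaks as well. Of 32 such genes, 17 had a MeTDiff peak of either strand, against 37.2% of all protein-coding genes counted that way, and 8 (25%, interval 13.3 to 42.1) had a summit, against 18.0%. Their 29 peaks had a median fold of 3.50. The largest folds were in LARP1, a protein that binds the cap of ribosomal protein mRNAs, with 20.9-fold and a score of 54.3. The highest score of these genes, 70.1, was in TRMT112, a partner of several methyltransferases, whose largest fold was 2.84; it is named after its value was seen. WDR4, a subunit of the tRNA N7-methylguanosine methyltransferase, had 13.5-fold. TRMT61A, the catalytic subunit of an N1-methyladenosine methyltransferase, had 9.64-fold, and FXR2, a paralog of FMR1, had 7.11-fold.

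Several limits apply to these values. The spans of 19 of the 35 genes overlap another gene, 7 of them a protein-coding one, and a summit there cannot be assigned by strand. Among genes with a summit, METTL3 overlaps TOX4, WTAP overlaps SOD2, RBM15B overlaps DCAF1 and ALYREF overlaps ANAPC11. In 4 genes, RBM15B, PRRC2A, CMTR1 and NSUN5, pairs of peaks had the same p-value, so the FDR values within a gene are not separate for each peak. Of the 32 folds under 10 in the machinery, 8 were multiples of 0.25 within 0.005, beside 38.0% of such folds in the whole list, and how many input reads a fold rests on is unknown.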

How the data were processed

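The members and gene lists were chosen with earlier results of these data known. Both deposited peak lists were filed for the whole series and name no library or condition, and whether the 2 precipitates of a condition are separate cultures is not labelled. The build was GRCh38, and MACS2 2.2.5, STAR 2.7.1, bedtools, Picard, featureCounts, SAMtools, DESeq2, edgeR and ChIPseeker were used, per the submitters' processing notes. What each tool did, its settings and which libraries were pooled is not given in the sources used here. The deposited MACS2 value of a summit is a −log10 of either its p-value or its q-value, unstated which. The deposited MeTDiff columns hold a p-value, the log10 of the FDR, and the fold, a ratio of precipitate over input, as read from the column order and values. The depth of each library is unknown because the lists carry no read counts.

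Peaks were assigned by position to spans of the RefSeq gene table (GRCh38.p14) with Python 3.11.15, pandas 2.3.3 and scipy 1.17.1. The strand of a gene was that of its RefSeq promoter entry. All 35 members are named, and those in both lists have fold, FDR and score. Of the other listed genes, the 4 of largest fold are named. The assignment was tested on simulated data. No test was made between members and other genes, since the members were chosen with results known. Alternatives changed the strand rule, the overlap rule, FDR and rank limits, overlapping spans, block rules and the end window. Base composition of whole peaks, and their place in exons or UTRs, were not analysed here, because no genome sequence or transcript model was used.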

Additional observations from a re-analysis of the deposited data

How the results depend on the processing

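Of 36 alternative values, 24 stayed close to the reported one, meaning a count within 1.5 times, a median within the interquartile range or a share within its interval. Counting either strand, any overlap, FDR up to 0.01 or 1 Ensembl ID per gene (the last chosen after seeing the data) left 21 or 22 genes with a MeTDiff peak, and merging overlapping rows left 38 peaks. With folds at or above the list median, 11 genes and 16 peaks remained, and with scores at or above the median 6 genes and 8 summits, of which 12.5% lay inside a peak. Only 16 genes overlap no other gene, and of these 9 had a MeTDiff peak (13 peaks) and 4 a summit (4 summits, 0.0% inside a peak). Allowing 100 bp between summit and block raised the share to 75.0%. With ends of 250 bp, 1 peak lay at the 3′ end. No paired analysis was possible because the lists do not separate libraries. Depth and replicate spread are unknown, so small differences between folds have no error.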

Other observations

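The upstream edges of MeTDiff peaks near gene starts were not evenly spread. Of 1531 peaks in protein-coding genes that began in bases 1 to 100 of the span, 431 (28.2%) began at bases 49 to 52. An even spread over single bases would give 4% there, and 651 began before that band. The widths of the machinery peaks lay close to multiples of 50 bp, such as 100, 151, 199, 250 and 350 bp. With widths in such steps, 4% is not a firm reference for the edges. What places the edges in this band was not tested. The band was chosen after the edges of the machinery peaks below were seen, so these peaks lie inside it by choice. All 4 peaks of the machinery that began in bases 1 to 100, those of METTL3, RNGTT, NSUN5 and ALYREF, began in that band, at bases 49, 51, 51 and 51. In METTL3 and ALYREF the MACS2 summit, at base 17 and base 28, lay upstream of that edge.

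Among all peaks of protein-coding genes the median fold was 5.33 at the 5′ end and 4.00 elsewhere. In the machinery it was 4.00 for the 9 peaks at the 5′ end (1.83 to 14.2) and 3.28 elsewhere (1.35 to 24.4), and these ranges overlap.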
